A study of Mus musculus with 10 samples.

Results

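Fibroblast growth factors (FGFs), their receptors and the klotho proteins form one signalling family, and here its transcripts are described in the brown adipose tissue of cold-exposed and control mice. Members were taken by gene symbol: every numbered Fgf gene, Fgfr1 to Fgfr4, Fgfrl1, the binding proteins Fgfbp1 and Fgfbp3, and the klothos Kl, Klb and Lctl. The rule found 32 genes among the 20295 gene models of the count table. The tissue was interscapular brown fat, which burns fuel to make heat, and its poly-A RNA was sequenced as 1 library per mouse. All mice were single-housed males of the C57BL/6JBomTac strain, 8 weeks old, with no transgene or drug named in the labels. The control group of 5 mice lived at 22 °C. The other 5 spent 3 days at 4 °C; their treatment tag also reads room temperature, and titles, source names and the treatment protocol place them in the cold group. The p-values measure the spread between these mice. Mice at 22 °C are below their thermoneutral range, so the controls are a mild-cold and not a heat-neutral baseline.

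Most FGFs are secreted proteins that bind receptor tyrosine kinases on neighbouring cells together with heparan sulphate chains, and the receptors signal mainly through the RAS and ERK kinases. A small endocrine subfamily, which includes Fgf21, binds heparan sulphate weakly, circulates in blood and needs a klotho protein as a co-receptor. Another subfamily, which includes Fgf11 and Fgf14, is not secreted and binds voltage-gated sodium channels inside the cell. In brown fat, Fgf21 is known as a gene that cold and adrenergic stimulation can raise.

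Library totals ran from 4446163 to 6923932 counts. Levels are given as CPM, counts scaled to library totals with TMM (trimmed mean of M-values) factors, and, for comparing different genes, as CPM per kilobase of counted sequence (RPKM). The first principal component of log2 CPM, with 40% of the variance, placed the 5 cold libraries apart from the 5 controls. On that component cold replicate 5 scored 6.7, nearer the controls (-30.6 to -18.1) than the other cold libraries (24.2 to 31.7). Control replicate 2 (-36.5) and cold replicate 5 (-23.5) stood apart on the second, where the other 8 lay between -0.9 and 23.7. The summed level of 8 brown adipocyte markers was 13382 to 15648 CPM in control and 22767 to 26589 CPM in cold libraries. That gap lay mostly in Ucp1, the uncoupling protein that makes the heat, which was at 8061 to 9934 CPM in control and 17145 to 19457 CPM in the cold. Of the 8 markers, Ucp1 and Elovl3 rose, Cox8b fell (-0.34, adjusted p = 0.0214) and 5 were not called, with a list median of -0.05. Endothelial markers summed to 641 to 850 CPM in control and 788 to 940 CPM in the cold, and 2 of 7 rose (Emcn and Kdr). Macrophage markers summed to 89.4 to 199 CPM and 66.3 to 341 CPM, with medians of 91.6 and 182 CPM, and 1 of 6 rose (Cd68, 2.12, adjusted p = 0.00673). T and B cell markers summed to at most 4.81 CPM in any library. The part of these cell types in the FGF values was not tested. Skeletal muscle markers reached 312 and 212 CPM in cold replicates 2 and 3 and lay between 4.53 and 74.3 CPM in the other 8 libraries.

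Of the 32 members, 12 had enough reads to be tested, 12 had a few counts and 8 had none. At an adjusted p under 0.05 in edgeR's quasi-likelihood test, 2 of the 12 tested members rose in the cold (Fgf21 and Fgf9) and 3 fell (Lctl, Fgf14 and Fgfrl1). Over all 11229 genes tested, 19.3% were called by the same rule, 10.2% higher and 9.16% lower. Fgf21 entered the test through its cold libraries only, Fgf9 largely through its cold libraries and Fgf14 largely through its controls, so the share of called members among those tested is not independent of the filter. For 6 of the 12 (the 5 called members and Fgfr2) the CPM ranges of the groups were separate, as was so for 14% of all genes tested. These data come from whole tissue, in which fewer cells of a type and less RNA per cell cannot be told apart.

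**Figure D1:**
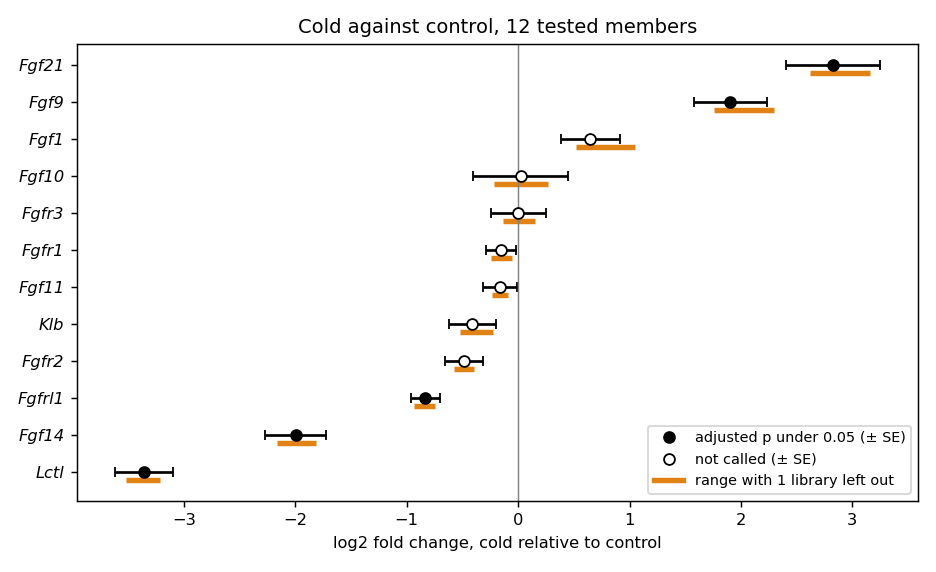
Log2 fold change of cold relative to control (x axis) for the 12 tested members (y axis), with bars for the SE, filled points for an adjusted p under 0.05, and an orange bar for the lowest to highest estimate when 1 of the 10 libraries was left out. Fgf21 (2.82) and Lctl (-3.36) lie at the ends, and the 3 signalling receptors Fgfr1, Fgfr2 and Fgfr3 have open points near or below 0.

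The sequence before the transcription start is shown for those called members whose entry in the RefSeq promoter table (build GRCm38.p6) begins at the start of the counted transcript: Fgf21 and Fgf9, which rose, and Lctl, which fell the most. Of the 32 members, 25 had an entry in that table and 11 had one at the start of the counted model. The counts themselves are on another build, mm9, and no coordinate was carried between builds. Each run is the 250 bases before the start, 5′ to 3′ on the gene's strand, in lower case, with capitals for matches to the searched motifs.
Fgf21, chr7:45615491-45615740, minus strand: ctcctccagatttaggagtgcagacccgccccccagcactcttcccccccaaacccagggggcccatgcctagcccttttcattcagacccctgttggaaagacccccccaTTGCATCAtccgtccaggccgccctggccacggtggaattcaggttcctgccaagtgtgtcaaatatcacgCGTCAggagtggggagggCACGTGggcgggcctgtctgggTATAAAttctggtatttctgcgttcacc
Fgf9, chr14:58072436-58072685, plus strand: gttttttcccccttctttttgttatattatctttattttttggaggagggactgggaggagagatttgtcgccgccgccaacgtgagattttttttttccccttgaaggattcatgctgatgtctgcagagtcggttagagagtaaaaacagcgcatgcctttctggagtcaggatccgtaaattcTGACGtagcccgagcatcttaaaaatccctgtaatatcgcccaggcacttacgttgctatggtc
Lctl, chr9:64116897-64117146, plus strand: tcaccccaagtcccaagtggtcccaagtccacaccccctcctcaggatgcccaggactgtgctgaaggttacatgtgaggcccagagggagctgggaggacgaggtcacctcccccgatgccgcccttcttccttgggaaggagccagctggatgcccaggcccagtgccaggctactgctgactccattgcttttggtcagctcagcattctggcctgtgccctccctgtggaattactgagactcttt
The motifs, searched on both strands, were the cAMP response element TGACGTCA and its shorter form TGACG (which lies inside the full element), the C/EBP-ATF composite element TGATGNAA, the DR1 repeat bound by PPAR and RXR, the estrogen-related receptor site TCAAGGTCA, the E-box CACGTG, the AP-1 site TGANTCA, the TATA box TATAAA and the CCAAT box. The Fgf21 window held the composite element as TTGCATCA on the opposite strand at bases -139 to -132 from the start, a match found in 3.45% of all 32851 windows of this length. It also held TGACG as CGTCA on the opposite strand at -68 to -64 (17.8% of windows), the E-box at -50 to -45 (6.02%) and the TATA box at -28 to -23 (12.4%). In the Fgf9 window the single match was TGACG at -64 to -60, and the Lctl window held 0 matches. GC content was 59.6% in Fgf21, 44.8% in Fgf9 and 60% in Lctl, against a median of 52.4% over all windows, and CG dinucleotides numbered 9, 11 and 3 against a median of 6. A match is a string of letters and not a shown binding site, and a window without one says nothing about any factor.

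Fgf21, the endocrine factor that acts through Klb and Fgfr1 and is best known from liver and fasting, was close to the detection limit at 22 °C and clearly read in the cold. Its raw counts in control replicates 1 to 5 were 6, 2, 3, 2 and 4, and in cold replicates 1 to 5 they were 28, 41, 28, 49 and 12. In normalised level the controls lay at 1.35, 0.391, 0.688, 0.336 and 0.824 CPM and the cold libraries at 4.80, 6.36, 3.98, 7.75 and 2.24 CPM. The groups did not overlap, and cold replicate 5 was the lowest cold library. The mean went from 0.719 ± 0.409 to 5.03 ± 2.13 CPM (SD, n = 5), which the fit gave as a 7.09-fold rise (log2 fold change 2.82, SE 0.42, adjusted p = 0.000684). The gene (chromosome 7, 52869260 to 52870860, mm9, minus strand) was counted over 947 bases. The summed muscle markers of cold replicates 1 to 5 were at 7.2, 312, 212, 11.1 and 6.91 CPM, and the macrophage markers at 130, 182, 297, 341 and 66.3 CPM; their part in the Fgf21 values was not tested. Over the 10 fits that left out 1 library, the log2 fold change of Fgf21 lay between 2.62 and 3.16.

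Fgf9, a paracrine ligand known from mesenchymal tissues and gonad development, also rose. The controls were at 4.06, 1.17, 1.83, 1.34 and 1.65 CPM in replicate order, and the cold libraries at 8.57, 8.22, 9.24, 6.80 and 4.11 CPM. The groups were separate by a narrow gap between control replicate 1 and cold replicate 5, which held 18 and 22 raw counts. From 2.01 ± 1.17 to 7.39 ± 2.04 CPM (SD, n = 5) the fitted rise was 3.74-fold (log2 fold change 1.90, SE 0.33, adjusted p = 0.00172). Without control replicate 1 the log2 fold change was 2.30, the highest of the fits that left out 1 library. Fgf9 lies on chromosome 14 (58691523 to 58731557, mm9, plus strand).

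Fgf1, which binds all the signalling FGF receptors and is known in adipose tissue as a target of PPAR gamma, was the most abundant secreted FGF per length in both groups. Its controls were at 60.0, 18.4, 23.6, 19.0 and 29.2 CPM and its cold libraries at 49.4, 44.5, 51.1, 47.1 and 42.0 CPM. All 5 cold libraries lay above 4 of the 5 controls, and control replicate 1 lay above every cold library. The means were 30.1 ± 17.3 and 46.8 ± 3.65 CPM (SD, n = 5), with a log2 fold change of 0.65 (SE 0.27) that did not pass the test (adjusted p = 0.106). Without control replicate 1 it was 1.05 (adjusted p = 0.000351). Limma-voom also called Fgf1 higher, at 0.81 (adjusted p = 0.0293), and over all 20 alternatives the adjusted p lay between 0.000351 and 0.215.

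Fgf10, a ligand of one splice form of Fgfr2 that is needed for fat depots to develop, gave a log2 fold change of 0.02 (SE 0.43, 95% interval -0.91 to 0.95). Controls ran from 2.74 to 9.27 CPM with a median of 5.04, and cold libraries from 1.12 to 8.96 CPM with a median of 6.51. Cold replicate 5 was the lowest of the 10 libraries, and it also had the lowest summed level of the 8 fibroblast and preadipocyte markers, 284 CPM where the 4 remaining cold mice had 513 to 566 and the controls 318 to 436. Cold replicate 4, the next lowest cold library for Fgf10 at 3.48 CPM, had a marker sum of 536 CPM. Of the 8 markers 3 rose (Pi16, Cd34 and Ly6a) and 0 fell, and all 8 were detected. The part of these cells in the Fgf10 values was not tested.

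**Figure D2:**
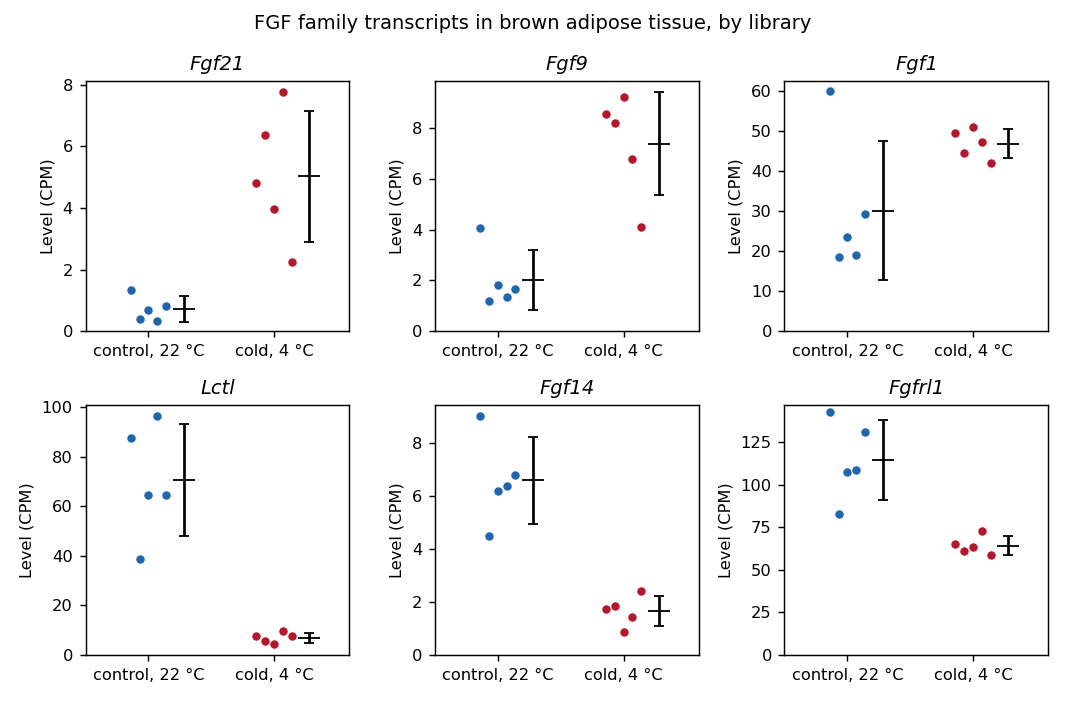
Level in CPM (y axis, from 0) of 6 members in each of the 5 control (blue) and 5 cold (red) libraries, left to right in replicate order, with the mean and SD of each group in black. Fgf21 and Fgf9 are higher and Lctl, Fgf14 and Fgfrl1 lower in every cold library than in any control, while Fgf1 in control replicate 1, at 60.0 CPM, lies above all cold libraries.

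Among the secreted FGFs, the mix shifted. Per length, Fgf1 made up 65.0 ± 4.59% of the summed secreted FGF transcripts in control and 55.0 ± 9.48% in cold libraries, with ranges of 59.9 to 72.4% and 47.6 to 71.0% that overlap. Fgf21 made up 6.38 ± 1.36% and 23.1 ± 7.09%, with ranges of 4.66 to 7.66% and 15.6 to 32.3% that do not overlap, and Fgf9 4.13 ± 0.565% and 7.92 ± 1.32%, also without overlap. The share of Fgf10 was 11.4 ± 4.60% and 5.27 ± 2.85%. The summed level was 11.5 ± 5.63 RPKM in control and 22.3 ± 4.07 RPKM in cold libraries (SD, n = 5), and the control with the highest sum, replicate 1 at 21.2 RPKM, lay within the cold range of 15.1 to 25.3 RPKM. These shares describe the libraries, since each rests on members whose own change is given above.

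The other secreted FGFs were at or near the limit of detection. Fgf18 had 13 counts over the 5 controls and 40 over the 5 cold libraries, where cold replicates 3 and 4 held 11 and 15 of them. Fgf16 had 19 and 17 counts, Fgf7, a ligand of epithelial receptors, 13 and 22, and Fgf2, the prototype heparin-binding FGF, 6 and 13. Fgf22 had 2 counts in each group, and Fgf4, Fgf5 and Fgf8 had a single count each. All genes with a count were also entered in the edgeR fit, which then held 12 sparse members: these 8 and Fgf13, Fgfbp3, Fgfr4 and Kl. Of these 12, 0 were called and 0 had an unadjusted p under 0.05, the lowest being 0.0832 for Fgf18. DESeq2 and limma-voom were run on the filtered genes, which do not hold them. No count was seen for Fgf3, Fgf6, Fgf15, Fgf17, Fgf20 or Fgf23, for Fgf12, which is not secreted, or for the binding protein gene Fgfbp1. At 3 counts over all 10 libraries this allows a level of up to 0.054 CPM for each gene, for counting error only. Of the genes without a count, Fgf15 and Fgf23 are the 2 endocrine FGFs of the mouse besides Fgf21. Fgfbp3, which encodes a secreted carrier of FGFs, was read in all 10 libraries at 43 and 50 counts in total.

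Of the intracellular FGFs, Fgf14 fell and Fgf11 did not pass the test. Fgf14 is best known for tuning sodium channels at the start of the neuronal axon. Its controls were at 9.03, 4.5, 6.19, 6.39 and 6.80 CPM and its cold libraries at 1.71, 1.86, 0.853, 1.42 and 2.43 CPM, with no overlap. Raw counts were 23 to 40 per control and 6 to 13 per cold library. The mean went from 6.58 ± 1.62 to 1.66 ± 0.578 CPM (SD, n = 5), a fall of 3.99-fold (log2 fold change -1.99, SE 0.27, adjusted p = 0.000364). Its gene model is one of the longest of the family (chromosome 14, 124377513 to 125076349, mm9, minus strand) and was counted over 3224 bases, so the value says nothing of its separate isoforms. Fgf11 gave -0.16 (SE 0.15, 95% interval -0.49 to 0.16), from 10.9 ± 1.21 to 9.68 ± 1.66 CPM. Fgf13 had 9 counts in each group and Fgf12 had 0.

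Sodium channel subunits, with which these FGFs associate, were mostly too low to test. Of 15 genes on a list of sodium channel and scaffold partners 3 were tested, 1 rose and 1 fell (median -0.70). Over all genes tested, 19.3% were called. Scn4b, an accessory beta subunit, rose by 3.70 on the log2 scale (SE 0.36, adjusted p = 3.07e-05), from 1.15 to 14.6 CPM on average. Without control replicate 2 or without cold replicate 5, 2 genes of this list fell. Markers of Schwann cells and neurons summed to 123 to 206 CPM in control and 148 to 245 CPM in cold libraries, 0 of the 4 that were tested were called. Most of that sum was S100b (127 and 149 CPM on average), and the neuronal genes Th, Tubb3 and Snap25 were at or near 0 in both groups. The part of nerve content in the Fgf14 values was not tested.

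The receptors that carry a kinase were not called. Fgfr1, the main FGF receptor of adipose tissue, was at 70.4, 49.9, 83.7, 68.1 and 56.6 CPM in control and 57.9, 58.0, 55.5, 52.7 and 71.7 CPM in cold libraries. These ranges overlap, and the log2 fold change was -0.15 (SE 0.13, 95% interval -0.44 to 0.14, adjusted p = 0.455). Without control replicate 2 and cold replicate 5 together it was -0.32 (adjusted p = 0.0481). Fgfr2 was at 7.83 to 11 CPM in control and 5.22 to 7.75 CPM in cold libraries, which do not overlap, yet its log2 fold change of -0.49 (SE 0.17) had an adjusted p of 0.059. Of the single-library omissions, that of cold replicate 2 alone let it pass, at -0.58 (adjusted p = 0.0468). Fgfr3 gave 0.00 (SE 0.25, 95% interval -0.53 to 0.54), with 4.94 to 9.98 CPM in control and 4.41 to 9.70 CPM in cold libraries. Fgfr4 had 1 count in all.

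Per length, Fgfr1 made up 80.0 ± 5.71% of the 4 kinase receptors in control and 81.2 ± 2.44% in cold libraries. Fgfr2 made up 10.01 ± 2.44% and 7.86 ± 1.03%, and Fgfr3 9.90 ± 3.46% and 10.9 ± 2.27% (SD, n = 5). The ranges of each overlapped between the groups. The lowest share of Fgfr1, 70.1%, was in a control library and the highest, 84.5%, in a cold one. Splice forms of the receptors, which set ligand preference, were not counted separately.

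Fgfrl1, which encodes a receptor that binds FGFs but has no kinase, was the member with the highest level per length in both groups and fell. The controls were at 143, 82.6, 108, 109 and 131 CPM and the cold libraries at 65.1, 61.2, 63.3, 73.1 and 58.8 CPM. The lowest control was control replicate 2, still above the highest cold library. The fall was 1.78-fold (log2 fold change -0.83, SE 0.13, adjusted p = 0.000907), from 115 ± 23.3 to 64.3 ± 5.45 CPM (SD, n = 5). Per length this was 43.1 ± 8.79 RPKM against 24.2 ± 2.05 RPKM. Fgfrl1 lies on chromosome 5 (109123248 to 109135969, mm9, plus strand).

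**Figure D3:**
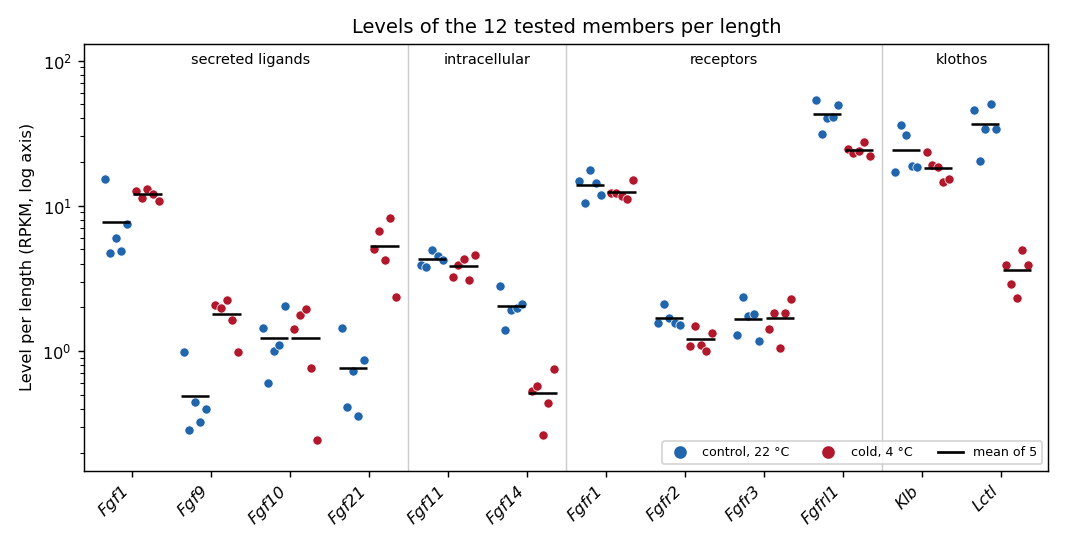
Level per length in RPKM (y axis, log scale) of the 12 tested members in each control (blue) and cold (red) library, ordered by role, with a line at the mean of 5. Fgfrl1 is the highest in both groups, Lctl goes from 36.7 to 3.60 RPKM, and the ligands Fgf9 and Fgf21 start below 1 RPKM on average.

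Klb, the co-receptor that lets Fgf21 act through Fgfr1, was abundant and was not called. The controls were at 58.9, 124, 106, 64.2 and 63.6 CPM and the cold libraries at 81.1, 65.4, 63.7, 50.5 and 52.6 CPM. Control replicates 2 and 3 lay above every cold library, and the other 3 controls lay within the cold range. The log2 fold change was -0.41 (SE 0.21, 95% interval -0.86 to 0.04, adjusted p = 0.187), and -0.23 without control replicate 2. Kl, the co-receptor of Fgf23, had 2 counts in each group.

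Lctl, a member of the same glycosidase-like family that is also called gamma-klotho, had the largest change of all 12 tested members. In control replicates 1 to 5 it was at 87.6, 38.8, 64.6, 96.3 and 64.7 CPM, and in the cold replicates at 7.54, 5.58, 4.41, 9.49 and 7.46 CPM. The lowest control, 38.8 CPM, lay far above the highest cold library, 9.49 CPM. From 70.4 ± 22.5 to 6.9 ± 1.96 CPM (SD, n = 5) the fall was 10.2-fold (log2 fold change -3.36, SE 0.26, adjusted p = 7.46e-06). Leaving out single libraries moved the log2 fold change between -3.52 and -3.22. Among the 32 members its level per length went from the second highest in control, 36.7 ± 11.8 RPKM, to the seventh in the cold, 3.60 ± 1.02 RPKM.

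The Lctl model (chromosome 9, 63964954 to 63985925, mm9, plus strand) overlaps the neighbouring gene Zwilch on the opposite strand by 975 bases, and no strand setting is given for the counts. Zwilch averaged 2.68 CPM in control against 1.19 CPM in cold mice, below Lctl in all 10 libraries. Of the other members, Fgf1 overlaps Gm5820 (0.209 and 0.217 CPM) and Fgf7 overlaps Fam227b (0 counts), both on the opposite strand. The remaining 29 members share no bases of their gene span with another model of the table.

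Comparing levels per length, the order in control was Fgfrl1, Lctl, Klb, Fgfr1 and Fgf1, at 43.1, 36.7, 24.2, 13.8 and 7.69 RPKM. In cold libraries it was Fgfrl1, Klb, Fgfr1, Fgf1 and Fgf21, at 24.2, 18.2, 12.4, 12.0 and 5.31 RPKM. In control the library ranges of each pair of neighbours overlapped (Klb 17.1 to 36.0, Fgfr1 10.49 to 17.6 and Fgf1 4.71 to 15.4 RPKM, for example). In the cold those of Fgfrl1 and Klb and of Fgfr1 and Fgf1 overlapped, while Klb and Fgfr1 narrowly overlapped (14.7 to 23.6 and 11.1 to 15.1 RPKM) and Fgf21, at most 8.19 RPKM, lay below every value of Fgf1. The median over all genes tested was 8.65 RPKM, so the mean levels of the 3 less common ligands, Fgf9, Fgf10 and Fgf21, were below the typical tested gene in both groups.

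Genes that act with the family were described with 7 lists, of which 88 genes were tested. Of these 88, 12 were called higher and 8 lower, beside 10.2% and 9.16% of all 11229 genes tested. The counts of each list are to be read beside these shares, and no list was tested as a set. On the list of receptor signal transducers 2 of 21 tested genes rose and 2 fell, with a median log2 fold change of 0.10 against -0.02 over all genes. Ptpn11, the phosphatase SHP2 that links receptors to RAS, rose by 0.51 (SE 0.12, adjusted p = 0.0113). Map2k1, the kinase MEK1, was lower by 0.28 (adjusted p = 0.0204) and Frs3, an adaptor docking to FGF receptors, by 0.67 (adjusted p = 0.0252). With single libraries omitted, Frs3 stayed called in 5 of 10 fits (adjusted p up to 0.0731) and Map2k1 in 9 (0.0601 without cold replicate 2). The adaptor Frs2, the chief link of FGF receptors to ERK, was at 0.15 (SE 0.13, adjusted p = 0.425).

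Of 14 tested feedback and target genes of FGF and ERK signalling, 3 rose and 0 fell, with a median log2 fold change of 0.51 against -0.02 over all genes. Ccnd1, which encodes cyclin D1, rose by 1.53 (SE 0.34, adjusted p = 0.00836), from 16.0 to 45.8 CPM on average. Spry4, a Sprouty inhibitor of the RAS pathway, was at 22.6, 18.6, 7.79, 6.05 and 7.62 CPM in control and 28.8, 25.0, 32.3, 38.6 and 19.6 CPM in cold libraries. It rose by 1.22 (SE 0.33, adjusted p = 0.0196), with control replicate 1 above the lowest cold library. Spred1, a Sprouty-related inhibitor, was higher by 0.54 (adjusted p = 0.0316) and stayed called in 4 of 10 such fits (adjusted p up to 0.0803). Spry4 was not called without cold replicate 4 (adjusted p = 0.0552). Dusp6, an ERK phosphatase, was at 0.82 (SE 0.31, adjusted p = 0.0795) and passed without control replicate 1 (1.13, adjusted p = 0.0125) or cold replicate 5 (0.95, adjusted p = 0.041). Spry1 and Spry2, of the same family as Spry4, were at 0.13 (SE 0.20) and 0.13 (SE 0.24), and the transcription factor Etv5 at 0.57 (SE 0.28, adjusted p = 0.17). With 1 library left out 1 to 6 genes of this list rose, 6 without control replicate 1 and 1 without cold replicate 4. Other signals than FGFs act on these genes. The macrophage and endothelial marker sums given above had higher medians in the cold, with ranges that overlapped between the groups. The part of these cell types in the values of the feedback and target genes was not tested.

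Heparan sulphate, the co-factor of paracrine FGFs, had 4 of 26 tested genes higher and 4 lower (median 0.04). Gpc1, a glypican that carries the chains at the cell surface, rose by 1.73 (SE 0.19, adjusted p = 7.5e-05), from 7.48 to 24.8 CPM. Extl1, a chain-building enzyme, rose by 2.56 (SE 0.46, adjusted p = 0.00222) from 0.584 to 3.69 CPM. Sdc2, a syndecan, fell by 0.81 (SE 0.12, adjusted p = 0.000493), and Sulf2, which removes sulphate groups from the chains, fell as well (-1.39, SE 0.25, adjusted p = 0.00244). Sulf2 was at 16.0 CPM in control replicate 2, within the cold range of 14.2 to 19.3 CPM, and at 47.7 to 54.0 CPM in the other 4 controls. Without cold replicate 4, 2 genes of this list rose.

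**Figure D4:**
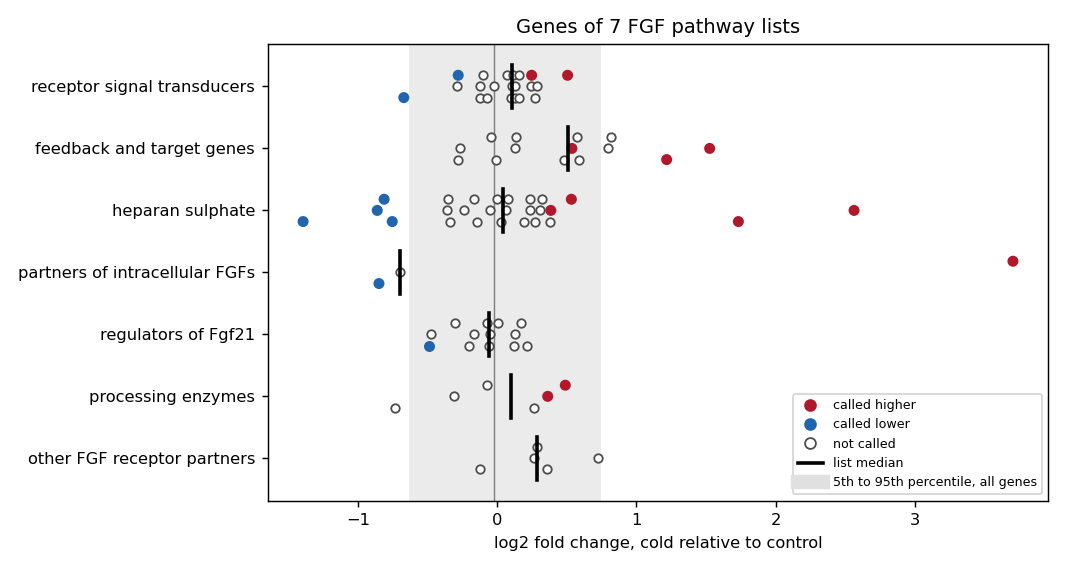
Log2 fold change of cold relative to control (x axis) of every tested gene on 7 lists (y axis), red for called higher, blue for called lower, open for not called, with a black line at the list median and a grey band from the 5th to the 95th percentile of all genes tested (-0.62 to 0.74). Only the feedback and target genes have a list median, 0.51, above 0.5, and the partners of intracellular FGFs, with 3 tested genes, have a median of -0.70.

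Of 13 tested transcription factors and coactivators known to act on Fgf21, edgeR called 0 higher and 1 lower (median -0.06), and 2 had an unadjusted p under 0.05. Ppara was at 0.13 (SE 0.19, adjusted p = 0.665), Atf4 at 0.17 (SE 0.20, adjusted p = 0.594) and Ppargc1a at -0.20 (SE 0.58, adjusted p = 0.836). For Ppargc1a, control replicate 2 stood at 991 CPM against 81.4 to 214 in the other controls, and without it Ppargc1a was higher by 1.02 (adjusted p = 0.0159). Limma-voom also gave a positive estimate, 0.48, that was not called (adjusted p = 0.564). Nr1d1, the clock repressor REV-ERB alpha, fell by 0.49 (SE 0.12, adjusted p = 0.0118). These are transcript levels and do not measure the activity of the factors.

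Of 6 tested enzymes that process FGFs or klothos 2 rose and 0 fell (median 0.10). Adam17, a protease that can shed klotho from the cell surface, rose by 0.49 (SE 0.10, adjusted p = 0.00394), and Furin, a proprotein convertase, by 0.36 (SE 0.09, adjusted p = 0.0137). Fap, a protease known to clip human FGF21, was at -0.07 (SE 0.31, adjusted p = 0.892) and at 3.04 and 2.84 CPM. Of 5 tested other partners of FGF receptors 0 were called by edgeR, DESeq2 or limma-voom, and 1 had an unadjusted p under 0.05 in edgeR. That gene was Cdh2, which encodes an adhesion protein, at 0.27 (SE 0.11, adjusted p = 0.118), and it was called without control replicate 3 (0.35, adjusted p = 0.0386). The co-receptor gene Nrp1 was at 0.29 (SE 0.13, adjusted p = 0.151).

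The 5 called members were the same in the authors' own comparison. It was made from the same libraries, so it is no independent check. Of all genes the authors compared, 19.8% had an adjusted p under 0.05. In the authors' deposited table, which holds 12 members among 11241 genes, Fgf21 had a log2 fold change of 2.813, Fgf9 of 1.896, Fgfrl1 of -0.835, Fgf14 of -1.998 and Lctl of -3.356, each with an adjusted p under 0.05. The authors' deposited table gives Fgf1 a log2 fold change of 0.641 with an adjusted p of 0.0515.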

How the data were processed

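The authors deposited whole-number read counts for each RefSeq model, 1 column per library, per the file headers, with the bases over which each model was counted. The submitters' processing notes name STAR, edgeR and mm9. Their versions, the counter and the strand setting are not stated in the labels or headers. The deposited comparison holds log2 fold changes, log2 CPM, p-values and adjusted p-values, per the file headers.

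Control columns carry no group word and were matched by replicate number, and 27 rows with a repeated or date-like symbol kept their RefSeq identifier. Stated starts count from 0 and were raised by 1. Counts were fitted in edgeR 4.0.16 (R 4.3.3) by quasi-likelihood, two-sided, with TMM factors after filterByExpr (about 10 counts in at least 5 libraries), Benjamini-Hochberg adjustment over 11229 genes and a threshold of 0.05. The SE is the log2 fold change divided by the square root of F, and 95% intervals use the fit's degrees of freedom. The fit was tested on simulated data with the same spread for every gene and changes only in better-read genes. That test does not cover genes as sparse as Fgf21 or libraries that stand apart. Levels used TMM-scaled totals. Replicates of a group differed by more than sampling noise (chi-square per degree of freedom 3.09 to 37.8).

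Every member is named; of each list, up to 4 called genes with the smallest p (the 2 smallest where none was called) and 11 fixed genes are named. Some genes under this rule are not reported here. Marker genes other than Ucp1 were named after their values were seen. Members, lists and alternatives were chosen with earlier results of these data known. Alternatives were RLE (relative log expression), upper quartile and no scaling, library sizes without the 20 most abundant genes, no filter or a CPM filter, DESeq2 1.42.0, limma-voom (limma 3.58.1), a replicate block and left-out libraries.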

Additional observations from a re-analysis of the deposited data

Results flagged for a closer look

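In groups of 5 libraries, 4 of the 24 member groups examined had 1 library set apart from the other 4 by more than Dixon's 95% limit, where chance flags about 1 in 20. Fgf1 was at 60.0 CPM in control replicate 1 against 18.4 to 29.2 CPM in the other controls. Fgf9 was at 4.06 CPM in the same library against 1.17 to 1.83 CPM. Fgfr2 was at 11 CPM in control replicate 2 against 7.83 to 8.71 CPM. Fgfr1 was at 71.7 CPM in cold replicate 5 against 52.7 to 58.0 CPM in the other cold libraries.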

How the results depend on the processing

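Lctl, Fgf14, Fgfrl1, Fgf21 and Fgf9 kept their direction and an adjusted p under 0.05 in all 20 alternatives. Members called higher numbered 2 to 3 and members called lower 3 to 4, both with 1 library left out and otherwise. Over all genes 823 to 1310 were higher and 732 to 1157 lower with 1 library left out. Genes of the 7 lists called higher numbered 7 to 14 and those called lower 5 to 10 with 1 library left out (7 without cold replicate 4, 5 without cold replicate 2), against 12 and 8 with all libraries; without control replicate 2 and cold replicate 5 together they were 16 and 11. Ppargc1a, between -0.45 and 1.02 with 1 library left out, changed sign to 1.02 (called) without control replicate 2 and to 0.90 (called) without that library and cold replicate 5 together; the cause was not tested. Without scaling factors 60.0% of all calls were higher, against 52.6% with TMM.

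With the replicate number as a block, Fgf1 was called, at 0.77 (adjusted p = 0.043), and Map2k1 and Frs3 were not (adjusted p = 0.0566 and 0.0542). The same number joins control and cold libraries in the labels, but deviations of same-numbered libraries correlated at -0.25 to 0.19, over 0.1 in 2 of 5 pairs, and 2 of the 5 controls correlated best with their own number, so the numbers were not taken to pair the mice. Depth limits the sparse members: 3 counts amount to 0.433 to 0.675 CPM in a single library.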

Other observations

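Control replicate 1 stood high for several ligands and for feedback genes of the pathway, a pattern chosen after the values were seen. It was the highest of the 5 controls for Fgf1, Fgf9, Fgf21, Fgf14 and Fgfrl1, and for 10 of the 14 tested feedback and target genes. On the list of receptor signal transducers it was the highest control for 8 of 21 genes, and on the heparan sulphate list for 5 of 26. In this library Dusp6 was at 119 CPM, against 29.8 to 73.0 CPM in the other controls and 70.9 to 163 CPM in the cold. Spred1 was at 51.5 CPM, against 28.2 to 31.7 CPM in the other controls and 42.0 to 54.7 CPM in the cold, and Ccnd1 at 29.8 CPM, against 5.87 to 18.8 CPM and 22.6 to 58.1 CPM. Its Ucp1 level, 9744 CPM, lay within the control range of 8061 to 9934 CPM and below every cold library (17145 to 19457 CPM). Of the 12 tested members, this library was the highest control for 5 and the lowest for 1. The lowest was Klb, at 58.9 CPM against 63.6 to 124 CPM in the other controls. Lctl, at 87.6 CPM, lay below its highest control of 96.3 CPM, so not every member followed the pattern. Control replicate 2 was the highest control for 3 of the 12 tested members and the lowest for 8. How often control replicate 1 was the highest control over all genes tested was not counted. The counts above are therefore not shown to be particular to the FGF genes.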
